A study of Homo sapiens with 4 samples.

Results

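The genes described here are 36 direct or well-known target genes of the transcription factor p53, from the feedback inhibitor MDM2 to the secreted factor GDF15. The main apoptosis genes and the CDK inhibitors were left out, although some members, such as AEN, TP53INP1 and TRIAP1, also act in cell death or limit it. They were chosen by symbol from knowledge of the pathway, with earlier results of these data known, although no measured value enters the choice directly. Shares of the members beside shares of all genes are therefore descriptive. All 36 were found among the 16376 genes of the deposited table, 33 of them at a mean of 50 normalized counts or more. RNA-seq was made from HCT116, a human colon cancer cell line, as poly(A)-selected libraries of 2 untreated samples (Control) and 2 samples exposed to hydrogen peroxide (H2O2), an oxidant that damages DNA, proteins and lipids. The labels give no dose, exposure time or other treatment, and nothing in them says that the samples came from separate cultures. The p-values therefore measure the spread between these samples, which may be technical. The question was how these genes differ between treated and untreated cells.

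p53 is held at a low level in unstressed cells by MDM2, a ubiquitin ligase that marks it for destruction and that is itself induced by p53. Damage signals free p53 from MDM2, and p53 then raises transcription of genes that stop the cell cycle, repair DNA, adjust metabolism, act as feedback inhibitors or kill the cell. Several of the genes, GDF15, GADD45A, GADD45B, SESN2, PLK2, PLK3 and NINJ1 among them, are also known to be induced by other stress signals, such as ATF4, NF-kB or immediate early transcription factors.

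The deposited table gives the authors' mean normalized count of each group (reads per gene divided by a size factor for library depth) and their DESeq test. Whole reads of the 4 libraries were recovered from these means, and the libraries held 6858809 to 7365032 reads over the listed genes. The table carries no replicate numbers, so the libraries are called the deeper and the shallower of each group. Control was taken as the first group from the order in the table's name, and every direction rests on that order. Of 10 colon epithelial markers 9 were listed, with a summed normalized count of 9918 and 11653 in the Control and 12950 and 12374 in the H2O2 libraries, and CDX1 was not listed. Of 6 fibroblast markers 3 were listed (COL1A1, COL3A1 and PDGFRB, summed 933 to 1017 in Control and 754 to 813 with H2O2). Of 6 immune markers 3 were listed, at summed counts of 8.63 and 19.5 in Control and 49.2 and 42.6 with H2O2, and the defining markers PTPRC and CD3E were not among the listed genes. CD79A, a B cell marker, had 0 and 2.05 normalized counts in Control and 22.2 and 19.8 with H2O2, and passed the authors' test, as did CD14, while CD68 did not (adjusted p = 0.918). COL1A1 was lower and the epithelial marker CLDN4 higher in that test (log2 fold changes of -0.45 and 0.47, adjusted p = 0.0211 and 0.00831). Of 4 endothelial markers KDR alone was listed, at 6.16 to 13.5 normalized counts. The part of other cell types in the results was not tested. In bulk RNA, a change in the share of cells and a change in RNA per cell cannot be told apart.

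With H2O2, 6 of the 36 genes were higher, none was lower and 30 stayed short of the threshold, an adjusted p under 0.05, in the authors' deposited table. The 6 were GADD45B, GDF15, GADD45A, PPM1D, PLK2 and TRIAP1, at 2.49-fold, 2.09-fold, 1.68-fold, 1.45-fold, 1.45-fold and 1.39-fold of the untreated level, as the authors' deposited table gives it. Their adjusted p-values there ran from 3.74e-15 for GADD45B to 0.0140 for TRIAP1. Of all listed genes, 7.19% passed that DESeq test, 2.58% as higher and 4.62% as lower, against 16.7% and none of the members. Since the members were chosen with earlier results of these data known, this contrast is not an independent test. At an adjusted p under 0.01, 5 members were higher, against 1.48% of all genes. At an unadjusted p under 0.05, 8 members were higher and 2 lower (MDM4 and ZMAT3), against 7.72% and 11.9% of all genes. MDM2, the best known feedback target, had nearly the same level in all 4 libraries. limma, a linear model test run on the recovered libraries as log2(normalized count + 1), called the same 6 genes higher and none lower, against 1.52% higher and 2.58% lower over all genes. Leaving out the deeper H2O2 library kept 3 of them in limma, GADD45A, GADD45B and GDF15, against a background of 0.635% higher and 1.1% lower. The same 3 were called when the shallower one was left out, against 1.29% higher and 1.84% lower. Dropping the deeper Control library gave 7 higher and 2 lower members, against 3.71% and 4.81% of all genes. Dropping the shallower Control library gave 10 higher and 2 lower members, against 10.6% and 11.6%, with the spread then taken from the H2O2 libraries alone.

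**Figure D1:**
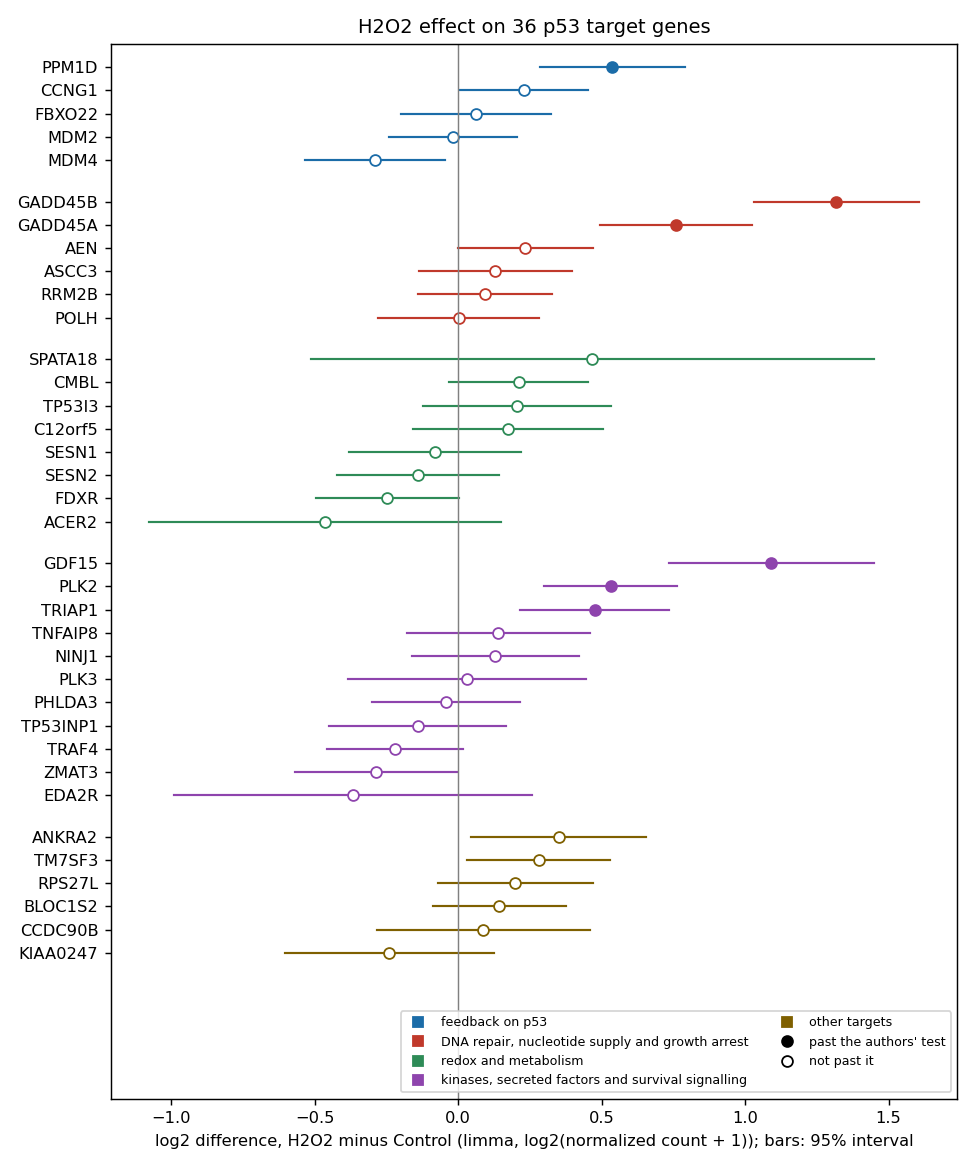
The log2 difference of each of the 36 genes (horizontal axis, H2O2 minus Control, limma on log2(normalized count + 1)) with its 95% interval, 2 libraries per group, grouped by role. Filled points passed the authors' test: GADD45B, GDF15, GADD45A, PPM1D, PLK2 and TRIAP1 lie to the right, from 0.48 to 1.32, and MDM2 lies at -0.02.

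The median log2 fold change of the 36 genes was 0.12 in the authors' deposited table, beside 0.00 over all genes (0.00029), and 24 genes (66.7%) had a value above 0, against 50% of all genes. For 15 genes (41.7%) both H2O2 libraries lay above both Control libraries, against 26.3% of all genes. For 6 (16.7%) both lay below, against 25.6%. The other 15 overlapped. The median moved with the library left out: computed from the recovered libraries it was 0.042 without the shallower H2O2 library, 0.19 without the deeper one, 0.076 without the deeper Control and 0.17 without the shallower Control. Libraries of 1 group also differed. The median size of the difference over the members, regardless of sign, was 0.17 log2 units between the Control and 0.11 between the H2O2 libraries. By role, the median log2 fold changes in the authors' deposited table were 0.067 for feedback on p53, 0.18 for repair, nucleotide supply and growth arrest, 0.048 for redox and metabolism, 0.022 for kinases, secreted factors and survival signalling, and 0.17 for the remaining targets.

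**Figure D2:**
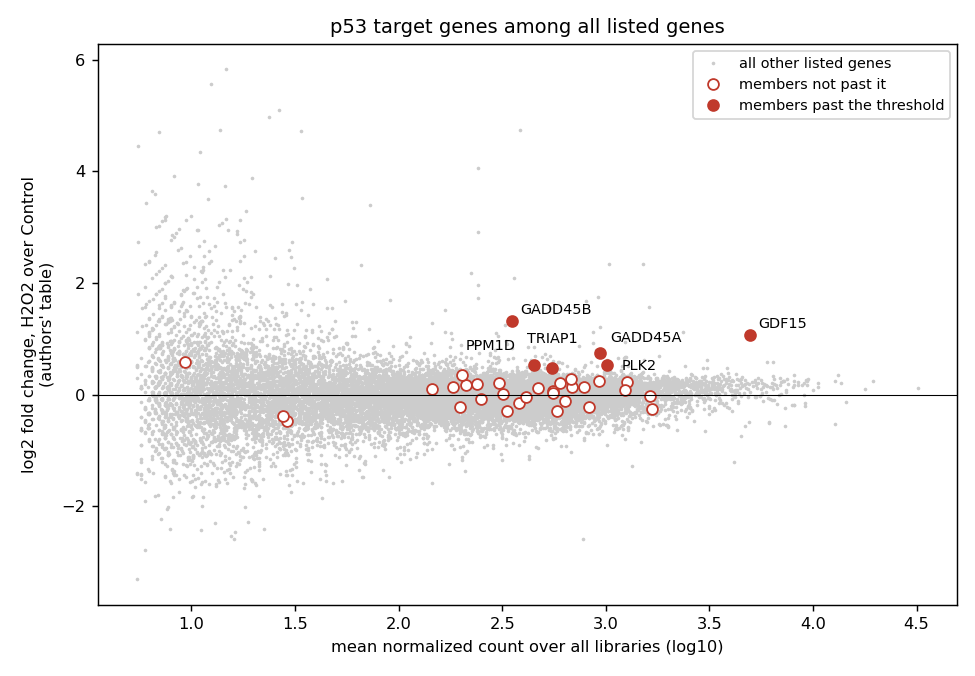
Log2 fold change of H2O2 over Control in the authors' deposited table (vertical axis) against the mean normalized count over all libraries (horizontal axis, log10). Small grey points are the other listed genes, leaving out 1 gene with no Control reads. Circles are the 36 members, and the 6 filled ones are past the threshold at log2 fold changes of 0.47 to 1.32.

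Promoter sequence was examined for the genes matched in RefSeq's table of windows from 250 bases before to 50 bases after an annotated start (GRCh38.p14), which held 43 windows for 29 of the 36 genes. No window was held for GADD45A, FBXO22, RRM2B, ASCC3, CMBL, PHLDA3 and TP53INP1, so these genes were not searched. Some genes have several starts. A match below is a description of letters and not a site. The p53 half-site, the short unit that occurs in pairs in p53 response elements, was found in 5 of 43 windows (11.6%), against 6.63% of the 35116 windows in the table. All motifs were searched on both strands, with no mismatch allowed. CATG, one form of its central letters, which can therefore overlap a half-site, was in 16 windows (37.2%), against 54.9%. The AP-1 motif TGACTCA was found in 4 windows, of MDM2 and EDA2R (9.30%, against 4.95%). These were 2 of the 29 genes, and the matching windows of each gene overlapped and held the same stretch. The cyclic AMP response element TGACGTCA was found in 1 window, of PPM1D (2.33%, against 1.85%). The CArG motif bound by SRF was found in none of the 43, against 1.29%. The stretches around these matches are shown because they set PLK2, the only one of the called genes with a window in the table whose window held a p53 half-site, beside 4 genes with one that were not called. Capitals mark the half-site, 5′ to 3′ on the gene's strand.
PLK2 (chr5:58460194-58460233, minus strand): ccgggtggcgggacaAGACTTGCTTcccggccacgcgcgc
AEN (chr15:88621291-88621330, plus strand): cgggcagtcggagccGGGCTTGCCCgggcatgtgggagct
FDXR (chr17:74872981-74873020, minus strand): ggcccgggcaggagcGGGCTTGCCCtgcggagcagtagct
SESN1 (chr6:109009013-109009052, minus strand): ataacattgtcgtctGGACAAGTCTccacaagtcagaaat
RPS27L (chr15:63157512-63157551, minus strand): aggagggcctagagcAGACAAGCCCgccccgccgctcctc

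The half-site of AEN and that of FDXR had identical letters. With the annotated start as position 0, the match in PLK2 ran from -132 to -123. Those of AEN, FDXR, SESN1 and RPS27L began at -34, -11, -49 and -59. For SESN1 this is the most downstream of 3 annotated starts. The next stretches are those of the feedback genes PPM1D and MDM2, of which PPM1D rose and MDM2 was not called, with the cyclic AMP response element and the AP-1 motif in capitals. The MDM2 stretch belongs to the downstream pair of its 4 annotated starts.
PPM1D (chr17:60600117-60600154, plus strand): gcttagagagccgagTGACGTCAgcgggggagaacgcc
MDM2 (chr12:68808884-68808920, plus strand): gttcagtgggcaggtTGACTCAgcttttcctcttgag
The 250 bases before the start of GADD45B and of GDF15 are shown because these 2 genes rose most. Neither stretch held any of the 5 motifs, and all letters are therefore in lower case. In the rest of its window GDF15 had CATG, at 31 to 34.
GADD45B (chr19:2475877-2476126, plus strand): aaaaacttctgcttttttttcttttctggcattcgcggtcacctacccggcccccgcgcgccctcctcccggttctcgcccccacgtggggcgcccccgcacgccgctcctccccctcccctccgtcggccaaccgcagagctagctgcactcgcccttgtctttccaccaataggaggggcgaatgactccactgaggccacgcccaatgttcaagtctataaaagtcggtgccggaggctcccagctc
GDF15 (chr19:18385908-18386157, plus strand): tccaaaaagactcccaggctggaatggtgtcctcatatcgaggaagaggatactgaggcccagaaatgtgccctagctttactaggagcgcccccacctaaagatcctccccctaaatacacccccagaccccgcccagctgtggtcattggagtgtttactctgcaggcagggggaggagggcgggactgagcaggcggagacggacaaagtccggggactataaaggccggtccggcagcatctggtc
A motif missing from these windows says only that its exact letters are not in them. An element that differs from the pattern by a letter was not counted, in MDM2 and GDF15 as in the other genes. p53 response elements also lie in introns and farther upstream.

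Of the 5 genes of feedback on p53, PPM1D was higher and 4 were not called in the authors' deposited table. The shares of all genes in that test were 2.58% higher and 4.62% lower. The groups of PPM1D, CCNG1 and MDM4 did not overlap, the last being lower with H2O2, while those of MDM2 and FBXO22 did. For comparison, both H2O2 libraries lay above both Control libraries for 26.3% of all genes and below for 25.6%. PPM1D encodes the phosphatase WIP1, which removes damage-induced phosphates from p53 and its upstream kinases. It stood at 354 and 381 normalized counts in the deeper and shallower Control libraries and at 533 and 534 in the H2O2 libraries. Both H2O2 values were above both Control values. PPM1D rose, by 0.54 ± 0.12 in log2 units (SE, n = 2 libraries in each group, adjusted p = 0.0186 by limma). Leaving out the deeper H2O2 library, or the shallower one, ended its call (adjusted p = 0.181 and 0.141 by limma), although its log2 difference was 0.54 in both fits.

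MDM2 had 1663 and 1636 normalized counts in Control and 1599 and 1662 with H2O2, and the groups overlapped. Its log2 difference was -0.02 with a 95% interval from -0.24 to 0.21 (limma, adjusted p = 0.945), so the upper bound lay under a doubling. The value is uncertain in that MDM2 shares 9.16% of the 75-base words of its longest transcript with other genes, chiefly an unlisted antisense gene. Whether the counting used strand is not given in the sources used here. MDM4, a relative of MDM2 that binds and blocks p53, had 651 and 627 normalized counts in Control and 546 and 500 with H2O2. Both H2O2 values were below both Control values, and limma did not call the log2 difference of -0.29 (adjusted p = 0.173). It was called when the shallower Control library was left out (-0.32, adjusted p = 0.0275), and in no other such fit. CCNG1, which encodes cyclin G1, a partner of a phosphatase that acts on MDM2, had 1160 and 1166 normalized counts in Control and 1379 and 1346 with H2O2. Its groups did not overlap either, and the log2 difference of 0.23 was not called (limma, adjusted p = 0.238). FBXO22, an F-box subunit of a ubiquitin ligase, had a log2 difference of 0.06 with overlapping groups, and is uncertain, since 17.5% of its words occur in other genes, chiefly NRG4 on the opposite strand.

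Among the 6 genes of DNA repair, nucleotide supply and growth arrest, GADD45A and GADD45B were higher and 4 were not called in the authors' deposited table. The shares of all genes in that test were 2.58% higher and 4.62% lower. GADD45A and GADD45B encode small stress proteins that bind cell cycle and repair factors and activate a kinase upstream of p38 and JNK. GADD45B had 182 and 221 normalized counts in Control and 495 and 508 with H2O2. The lowest H2O2 value was above the highest Control value by more than the spread within either group. It rose, by 1.32 ± 0.14 in log2 units (SE, n = 2 libraries in each group, adjusted p = 6.34e-05 by limma), with a 95% interval from 1.03 to 1.61. GADD45A had 612 and 780 normalized counts in Control and 1190 and 1150 with H2O2, also without overlap. It rose, by 0.76 ± 0.12 in log2 units (SE, n = 2 libraries in each group, adjusted p = 0.00354 by limma). With a library left out, the log2 differences were 1.18 to 1.46 for GADD45B and 0.58 to 0.94 for GADD45A. Each such fit keeps 1 library in that group and does not measure its spread. The shallower Control library exceeded the deeper one by 0.35 for GADD45A and 0.28 for GADD45B in log2 units, less than their differences with H2O2.

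The repair and nucleotide genes proper showed smaller differences. RRM2B, the p53-inducible subunit of ribonucleotide reductase, had 1268 and 1130 normalized counts in Control and 1249 and 1304 with H2O2, and the groups overlapped. Its log2 difference was 0.09 with a 95% interval from -0.14 to 0.33 (limma, adjusted p = 0.673). POLH, the translesion polymerase eta, had a log2 difference of 0.00 (0.0019), with an interval from -0.28 to 0.28. AEN, a nuclease linked to p53-dependent cell death, had 832 and 870 normalized counts in Control and 1054 and 951 with H2O2. The AEN groups did not overlap, and its log2 difference of 0.23 was not called (limma, adjusted p = 0.249), except with the shallower Control library left out (0.27, adjusted p = 0.0343). ASCC3, a helicase used in alkylation repair and ribosome quality control, had a log2 difference of 0.13 with overlapping groups.

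None of the 8 redox and metabolism genes was called, either in the authors' deposited table or by limma, and in neither test did any have an unadjusted p under 0.05. TP53I3, a quinone oxidoreductase, had 192 and 253 normalized counts in Control and 248 and 260 with H2O2. Its log2 difference of 0.21 (limma, adjusted p = 0.472) was smaller than the 0.40 between the 2 Control libraries. Against the deeper Control library alone, TP53I3 was called 0.40 higher (limma, adjusted p = 0.0411), and against the shallower alone its difference was 0.01 (0.0084). The sestrins SESN1 and SESN2, which restrain mTORC1 and take part in antioxidant defence, both had values just under 0. SESN1 had 246 and 268 normalized counts in Control and 226 and 261 with H2O2. SESN2 had 360 and 438 in Control and 347 and 376 with H2O2. The groups of both genes overlapped, and the 95% intervals of their log2 differences reached from -0.38 to 0.22 for SESN1 and from -0.42 to 0.14 for SESN2. SESN1 is uncertain, because 5.15% of its words are shared, chiefly with an antisense gene.

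FDXR, the reductase that feeds electrons to mitochondrial cytochromes P450, had 1632 and 1997 normalized counts in Control and 1495 and 1549 with H2O2. Both H2O2 values lay below both Control values, and the log2 difference of -0.25 was not called (limma, adjusted p = 0.253). It was -0.39 without the deeper Control library and -0.10 without the shallower, each fit keeping 1 Control library. CMBL, a hydrolase, had non-overlapping groups at a log2 difference of 0.21 (limma, adjusted p = 0.312). C12orf5, the older symbol of TIGAR, a phosphatase that diverts glucose from glycolysis to NADPH production, had a log2 difference of 0.17 with overlapping groups. That value is uncertain, since 46.0% of its words also occur in an overlapping gene on the same strand. SPATA18, a mitochondrial quality control gene, was barely detected, with 8 and 7 reads in Control and 8 and 14 with H2O2. It was listed with a mean under 50, as were ACER2 and EDA2R. ACER2, an alkaline ceramidase, had 38 and 30 reads in Control and 23 and 25 with H2O2. ACER2 is uncertain, as 8.18% of its words are shared. At this depth the intervals were wide, and the 95% limits of the log2 difference ran from -0.51 to 1.45 for SPATA18 and from -1.08 to 0.15 for ACER2.

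**Figure D3:**
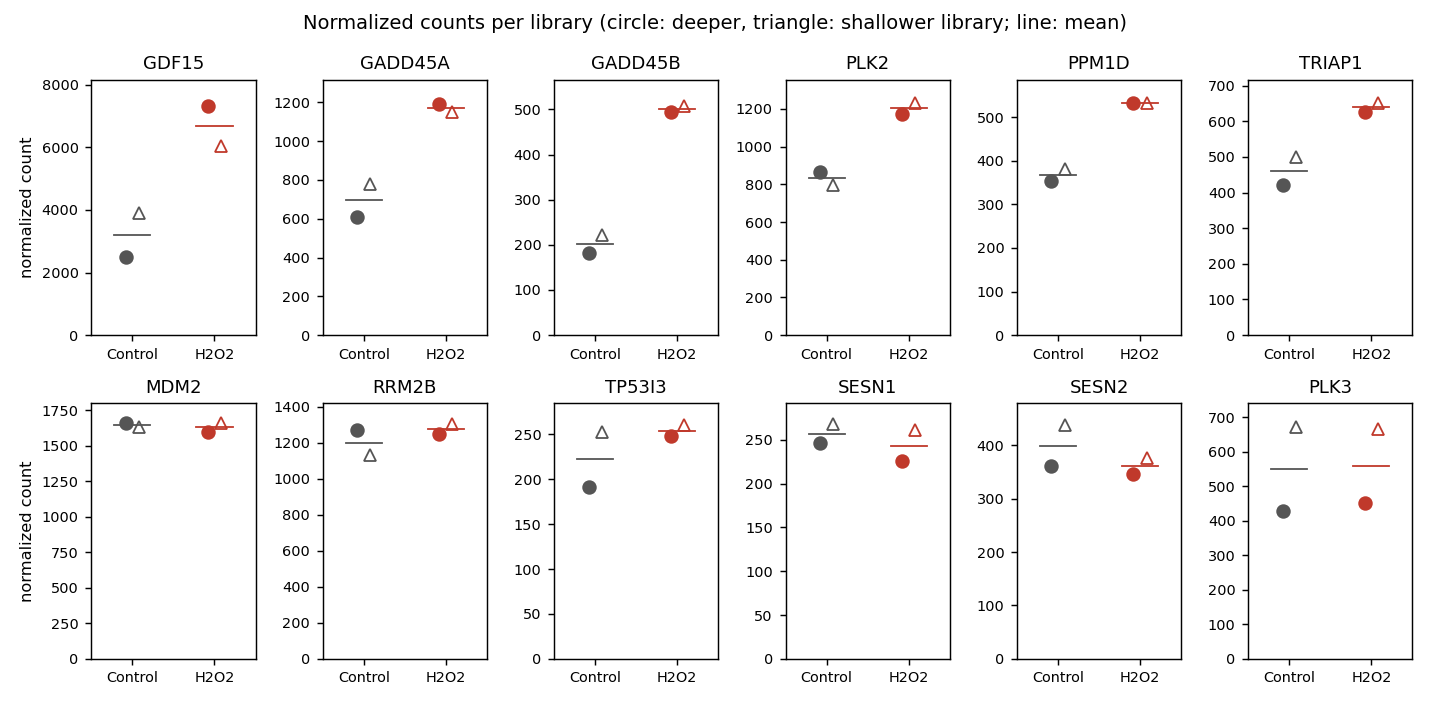
Normalized counts (vertical axes, from 0) of 12 members in each library: Control grey, H2O2 red, circle for the deeper and triangle for the shallower library of a group, line for the mean. The upper 6 genes are those past the authors' test, each with both H2O2 values above both Control values, and the lower 6 overlap, PLK3 with a wide spread within each group.

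Of the 11 kinases, secreted factors and survival signalling genes, GDF15, PLK2 and TRIAP1 were higher and 8 were not called in the authors' deposited table. The shares of all genes in that test were 2.58% higher and 4.62% lower. GDF15, a secreted stress cytokine of the TGF-beta superfamily, had 2503 and 3901 normalized counts in Control and 7319 and 6059 with H2O2. The groups did not overlap, but its Control libraries were 0.64 apart on the log2 scale. GDF15 rose, by 1.09 ± 0.17 in log2 units (SE, n = 2 libraries in each group, adjusted p = 0.00221 by limma). With a library left out, its log2 difference ranged from 0.77 without the deeper Control to 1.41 without the shallower. A fit that keeps 1 Control library does not measure the spread between the Control libraries. PLK2, a polo-like kinase of the G1 phase and of centriole duplication, had 866 and 798 normalized counts in Control and 1172 and 1233 with H2O2. It rose, by 0.53 ± 0.11 in log2 units (SE, n = 2 libraries in each group, adjusted p = 0.0119 by limma). TRIAP1, a small mitochondrial protein that limits apoptosis, had 422 and 500 normalized counts in Control and 626 and 652 with H2O2. It rose, by 0.48 ± 0.12 in log2 units (SE, n = 2 libraries in each group, adjusted p = 0.0402 by limma). Both lost their call in limma when the deeper H2O2 library was left out (adjusted p = 0.113 for PLK2 and 0.22 for TRIAP1) and when the shallower was (0.171 and 0.267). The log2 differences in those fits were 0.57 and 0.50 for PLK2 and 0.51 and 0.45 for TRIAP1. Without the deeper and without the shallower Control library they were 0.59 and 0.47 for PLK2 and 0.35 and 0.60 for TRIAP1. Each of these fits keeps 1 Control library.

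PLK3, the close relative of PLK2, had 427 and 672 normalized counts in Control and 451 and 665 with H2O2. The shallower library of each group was high and the deeper low, so the groups covered the same range. Its log2 difference was 0.03 with an interval from -0.38 to 0.45 (limma, adjusted p = 0.946), and its direction depended on the library left out. It was called 0.36 higher without the shallower Control library (adjusted p = 0.0135), stood at -0.30 without the deeper Control (adjusted p = 0.0737), at -0.25 without the shallower H2O2 and at 0.31 without the deeper H2O2 library. Whether PLK2 and PLK3 differ in their response was not tested. ZMAT3, an RNA-binding zinc finger protein, had 398 and 339 normalized counts in Control and 290 and 312 with H2O2. Its groups did not overlap, and the log2 difference of -0.29 was not called (limma, adjusted p = 0.240), except with the shallower Control library left out (-0.40, adjusted p = 0.0167).

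The other 6 of these signalling genes had log2 differences from -0.37 to 0.14 in limma. TRAF4, an adaptor of the TRAF family, had 840 and 946 normalized counts in Control and 770 and 760 with H2O2. Its log2 difference of -0.22 was not called by limma (adjusted p = 0.285). The difference was -0.31 without the deeper Control library, in a fit that keeps 1 Control library. TRAF4 is uncertain, as 7.93% of its words are shared with other genes. TP53INP1, a cofactor in stress-induced autophagy and cell death, had 687 and 633 in Control and 503 and 711 with H2O2, so the H2O2 libraries spanned the Control ones. PHLDA3, which competes with AKT for membrane lipids, had 401 and 432 in Control and 394 and 414 with H2O2, at a log2 difference of -0.04. PHLDA3 is uncertain, as it shares 17.7% of its words, chiefly with an unlisted transcript that overlaps its end. NINJ1, a mediator of plasma membrane rupture, had a log2 difference of 0.13 and was called only with the shallower Control library left out (0.32, adjusted p = 0.0360). Without the deeper Control it stood at -0.06. TNFAIP8, a lipid-binding regulator of cell survival, had non-overlapping groups at a log2 difference of 0.14. EDA2R, a receptor of the TNF receptor family, was low, at 35 and 28 reads in Control and 27 and 21 with H2O2.

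None of the 6 remaining targets was called by the authors' test or by limma. At an unadjusted p under 0.05 in the authors' test 2 were higher (ANKRA2 and TM7SF3), against 7.72% of all genes. For 4 of the 6 both H2O2 values lay above both Control values, against 26.3% of all genes. ANKRA2, an ankyrin repeat protein, had 180 and 176 normalized counts in Control and 217 and 237 with H2O2. TM7SF3, a multi-pass membrane protein, had 658 and 576 in Control and 781 and 716 with H2O2. Their log2 differences of 0.35 and 0.28 were not called by limma (adjusted p = 0.188 and 0.193), and TM7SF3 was called only with the deeper Control library left out (0.38, adjusted p = 0.00896). ANKRA2 is uncertain, as 8.55% of its words occur in UTP15 on the opposite strand. RPS27L, a relative of a ribosomal protein, and BLOC1S2, a subunit of lysosome-related complexes, had log2 differences of 0.20 and 0.14. CCDC90B, at 0.09, is uncertain because 19.6% of its words are shared, chiefly with ANKRD42. KIAA0247, the older symbol of SUSD6, had a log2 difference of -0.24 with overlapping groups. None of the 6 genes called higher shares a word with another gene or an exon base with an overlapping one in GENCODE 29.

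Across the 36 genes the upper bound of the limma 95% interval lay under a doubling for 32, against 90.1% of all genes. The other 4 were GADD45B, GDF15, GADD45A and SPATA18. Of the 7 genes listed above as also known for other stress inducers, 4 were higher in the authors' deposited table (GDF15, GADD45A, GADD45B and PLK2). The other 3 were not called, and the median log2 fold change of the 7 was 0.53. Of the other 29, PPM1D and TRIAP1 were higher and 27 were not called in the authors' deposited table, with a median of 0.09. Over all genes 2.58% were higher in that test. The list of 7 need not be complete, so the 29 may hold further genes with other inducers. Both groups of genes were drawn up with earlier results of these data known, and whether they differ was not tested. The median size of the difference between the 2 Control libraries, regardless of sign, was 0.35 log2 units for the 7 genes, 0.12 for the other 29 and 0.20 for all genes. Between the 2 H2O2 libraries it was 0.073, 0.13 and 0.13. The part of that spread in the result was not tested.

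**Figure D4:**
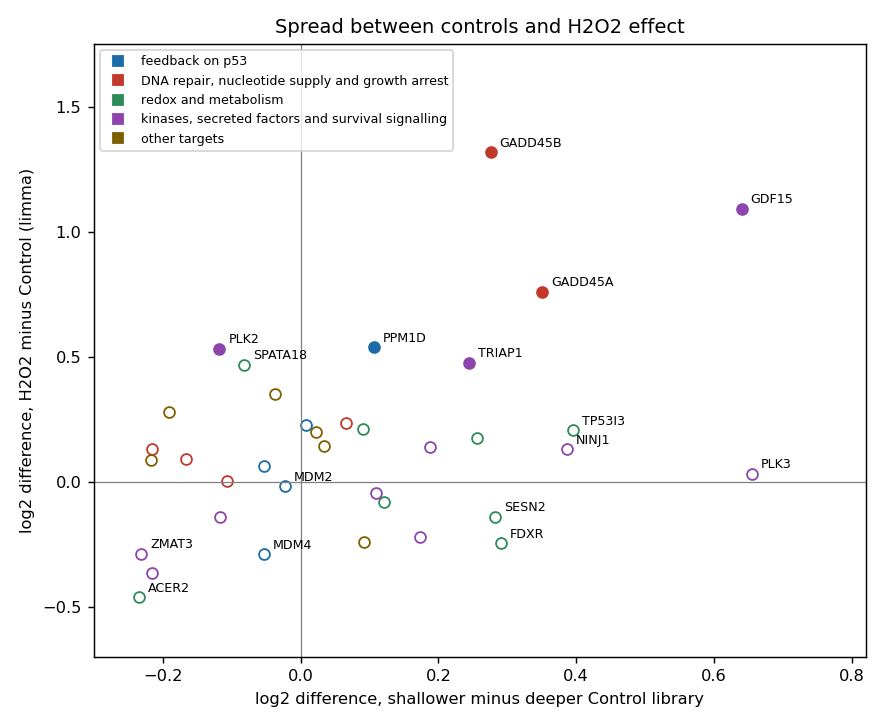
Log2 difference of H2O2 minus Control (vertical axis, limma) against the log2 difference between the shallower and the deeper Control library (horizontal axis) for the 36 genes, coloured by role, filled where past the authors' test. PLK3 and GDF15 have the widest control spread, 0.66 and 0.64, with H2O2 differences of 0.03 and 1.09.

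On a scale of normalized counts per kilobase of exon, GDF15 had the highest level of the 36 genes in Control, at 1534, followed by FDXR at 504, CCNG1 at 376, GADD45A at 336 and TRIAP1 at 320. With H2O2, GDF15 stood at 3205 and GADD45A at 566, above FDXR at 423. GADD45B stood at 94.2 in Control, close to TP53I3 at 96.1 and POLH at 90.3, and at 235 with H2O2. MDM2 stood at 124 and 123 in the groups. The lowest levels were those of EDA2R, at 8.70 in Control, and SPATA18, at 1.503.

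Of 18 p53 targets of apoptosis, arrest and repair 17 were listed, without TP53AIP1. Of these, 5 were higher, none lower and 12 were not called in the authors' deposited table, against 2.58% higher and 4.62% lower of all genes, with a median log2 fold change of 0.17. At an unadjusted p under 0.05 the DESeq test had 8 of them higher and none lower, against 7.72% and 11.9% of all genes. limma called 3 higher and none lower, against 1.52% and 2.58%. The 5 were PMAIP1, BBC3, CDKN1A, SFN and PCNA, at 1.82-fold, 1.53-fold, 1.497-fold, 1.40-fold and 1.34-fold of Control in the authors' deposited table. CDKN1A, the CDK inhibitor p21, had 3783 and 6506 normalized counts in Control and 7115 and 8287 with H2O2, without overlap. Its Control libraries were 0.78 apart on the log2 scale, and its log2 difference of 0.63 was not called by limma (adjusted p = 0.0717). It ranged from 0.24 without the deeper Control library to 1.02 without the shallower. Such a fit keeps 1 Control library, so it does not measure the spread between the Control libraries. SFN, an arrest gene of the 14-3-3 family, was not called either (0.51, adjusted p = 0.0696). The SFN difference ranged from 0.22 without the deeper Control library to 0.80 without the shallower. limma called PMAIP1 (NOXA) with each library left out. The call of BBC3 (PUMA) was lost when the deeper H2O2 library was left out (adjusted p = 0.211), and that of the replication clamp PCNA when either H2O2 library was (0.326 for the deeper and 0.347 for the shallower). The log2 difference of BBC3 was then 0.52, against 0.61 with all libraries, and that of PCNA 0.45 and 0.40, against 0.42.

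Of 23 regulators of p53 22 were listed, without TP63. Of these, none was higher, 3 were lower and 19 were not called in the authors' deposited table, against 2.58% higher and 4.62% lower of all genes, with a median log2 fold change of -0.17. At an unadjusted p under 0.05 the DESeq test had 8 of them lower and none higher, against 11.9% and 7.72% of all genes. limma called 2 lower and none higher, against 2.58% and 1.52%. PPP1R13B, which encodes ASPP1, a partner that directs p53 to apoptosis genes, had 284 and 314 normalized counts in Control and 192 and 180 with H2O2. It fell by 0.68 ± 0.14 in log2 units (SE, n = 2 libraries in each group, adjusted p = 0.0119 by limma). With the shallower H2O2 library left out it was not called (adjusted p = 0.0786). CUL9, a cytoplasmic p53-binding cullin, had 586 and 558 in Control and 419 and 420 with H2O2. It fell by 0.45 in log2 units (adjusted p = 0.0420 by limma) and lost its call when the deeper or the shallower H2O2 library was left out (0.351 and 0.264), at log2 differences of -0.44 and -0.45. HIPK2, a kinase of p53, had 1209 and 832 in Control and 697 and 793 with H2O2 and was called by the authors' test but not by limma (-0.43, adjusted p = 0.119). Its difference was -0.16 without the deeper Control library and -0.70 without the shallower, each fit keeping 1 Control library. The deeper Control library was high for HIPK2, and the median difference of the regulators between the shallower and the deeper Control library was -0.21 in log2 units. The part of that spread in the lower values was not tested. PPP1R13B is uncertain, with 7.82% of its words shared, and CUL9 shares 1.23%.

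**Figure D5:**
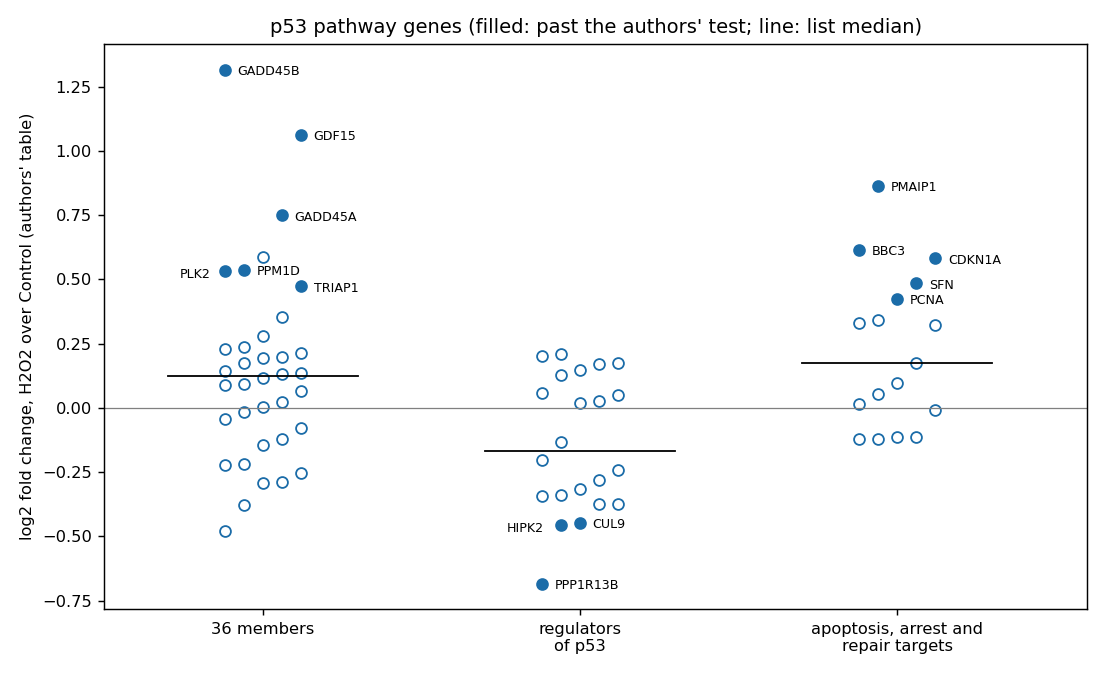
Log2 fold change of H2O2 over Control in the authors' deposited table (vertical axis) for the 36 members, 22 regulators of p53 and 17 other p53 targets. Filled points passed the threshold, and black lines are list medians of 0.12, -0.17 and 0.17.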

How the data were processed

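RNA-seq of 2 Control and 2 H2O2 samples was deposited as 1 table. The build was hg19 and the tools STAR, HTSeq, DESeq, Trim Galore, FastQC and CASAVA 1.8, per the submitters' processing notes, which give them here without settings or annotation release. The authors' mean columns are a signal, counts divided by size factors and averaged per group, per the file headers. The deposited fold column is the ratio of these means and the deposited log2 column its log2. The deposited p-value columns are the authors' test and its Benjamini-Hochberg adjustment, which was recomputed to within 2.05e-15. The lowest mean listed was 5.46, so lower genes are not analysed here.

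Each group mean was solved for 2 whole counts, each divided by its own size factor, within 1e-09. A single solution existed for each of the 16376 genes in both groups, and size factors recomputed from the counts matched. Since these counts are solved from means, no count model was run. limma 3.58.1 (R 4.3.3) was fitted with a mean-variance trend to log2(normalized count + 1) over all genes, a scale that understates changes of low genes, and gave all adjusted p-values named limma. limma and the recovery of counts were each tested on simulated data. Leaving out a library leaves 1 in its group, which is then assumed to vary like the other group.

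Members and lists were chosen with earlier results of these data known. Values in every library are given for members past the threshold, for those at an unadjusted p under 0.05 and for 10 genes fixed by name. A gene of the fixed pathway lists is not reported here. Further values shown were picked with the data in view. Exonic lengths, overlaps and shared 75-base words came from GENCODE 29, on another build than the table, so coordinates are given for RefSeq windows alone. Alternatives were an adjusted p under 0.01, a mean of at least 50, pseudocounts of 0.5 and 5, library totals, a minimum mean of 10, each library left out and a length correction.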

Additional observations from a re-analysis of the deposited data

How the results depend on the processing

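No paired analysis was possible because the recovered libraries carry no replicate number. The 6 members called by the authors' test were 5 at an adjusted p under 0.01, and 6 with limma or among genes with a mean of at least 50. limma called the same 6 genes with pseudocounts of 0.5 and 5, with library totals and at a minimum mean of 10. With each library left out it called 3 to 12 members, 3 with either H2O2 library left out, 9 without the deeper Control and 12 without the shallower. Fits without a Control library take their spread from the H2O2 libraries alone. The share of all genes called, given above for each fit, was also lower without an H2O2 library and higher without a Control library. The change in the member count between fits can therefore not be read as particular to the members. The members' median log2 fold change ranged from 0.042 to 0.19 with a library left out (0.042, 0.076, 0.17 and 0.19) and stayed within the spread between libraries with library totals (0.11), with a mean of at least 50 (0.13) and after the length correction (0.13), which was added after seeing the data. Of the other p53 pathway genes, 8 passed in the authors' deposited table, 5 in limma and 6 at an adjusted p under 0.01. The 8 were 5 targets, all higher, and 3 regulators, all lower, so the count pools both directions. In the authors' test 7.19% of all genes passed. None of the 6 called members changed direction in any limma fit. Their groups did not overlap, so leaving out a library or changing the pseudocount could not have reversed them. PLK3 and NINJ1, each called without the shallower Control library (0.36 and 0.32), stood at -0.30 and -0.06 without the deeper one, uncalled. Depth limits SPATA18, ACER2 and EDA2R.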
